A study of Mus musculus with 24 samples.

Results

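The mitochondrial genome of the mouse was followed through RNA sequencing of hippocampal lysates and of ribosomes pulled down from them. Its genes were taken as every row of the deposited count table whose symbol starts with MT-, which gave 37 of 51733 rows: 13 protein genes, 2 rRNA genes and 22 tRNA genes. Of these, 22 had a count in at least 1 of the 24 libraries, and the other 15, all tRNA genes, stood at 0 in every library. The libraries came from 12 adult male C57BL/6 mice of 2 to 3 months, each of which gave an immunoprecipitate (IP) and an input from its pooled hippocampi. The IP used RiboTag, in which Cre recombinase switches on a tagged copy of the cytosolic ribosomal protein Rpl22, so that an antibody to the tag draws down ribosomes of Cre-positive cells. In the knock-in mice Cre was driven by the CaMKIIα promoter, active in excitatory forebrain neurons, and the input holds RNA of all hippocampal cells. The conditional knock-in mice (eIF2α cKI, eIF2αA/A;fTg+, Cre-positive) carry alanine in place of the phosphorylated serine of the translation factor eIF2α on both alleles, and a floxed copy of the unmutated gene (fTg) that is lost from Cre-positive cells. The sample labels give the control mice as standard CaMKIIα-Cre+ mice, while the breeding protocol names both Cre-negative and Cre-positive controls; Rpl22 was at 661 to 952 CPM (counts per M of scaled library size) in control IPs, against 155 to 196 CPM in control inputs. Mice of each genotype were naive or taken 1 h after fear conditioning, which makes 8 groups of 3 libraries: IP cKI naive, IP cKI 1 h, IP control naive, IP control 1 h, and the 4 matching inputs.

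The proteins of this genome are core subunits of the respiratory chain and of ATP synthase: 7 of complex I (NADH dehydrogenase), 1 of complex III (cytochrome bc1), 3 of complex IV (cytochrome c oxidase) and 2 of complex V (ATP synthase). Their mRNAs are made inside the organelle and are translated there by mitochondrial ribosomes, which are built on the genome's own rRNAs and do not contain Rpl22. Most genes lie on one strand and are cut from long shared transcripts. MT-ND6 is the only protein gene on the other strand, and its mRNA is known to have little or no poly(A) tail. The libraries were made from poly(A)-selected RNA with a directional kit, but whether the counts used strand is not stated in the sources used, so counts of MT-ND6 may include reads of transcripts from the opposite strand.

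Depth was 30.6 to 43.5 M counts in IPs, against 28.8 to 37.7 M in inputs. In IP over input the excitatory neuron marker Camk2a was higher by 0.96 on the log2 scale (SE 0.07, edgeR adjusted p = 1.7e-11) and Rpl22 by 2.13 (SE 0.09, edgeR adjusted p = 3.15e-14). Summed astrocyte markers were at 597 to 839 CPM in IPs, against 4638 to 5278 CPM in inputs. Summed oligodendrocyte markers were at 266 to 403 CPM in IPs, against 3759.6 to 6033 CPM in inputs. Eif2s1, the gene for eIF2α, was at 50.2 to 55.9 CPM in cKI IPs and 44.0 to 50.5 CPM in control IPs, and at 35.1 to 40.8 CPM in cKI inputs and 29.9 to 33.4 CPM in control inputs. In fits without sequencing lane as a covariate it was higher in cKI than in control mice, as the mean of naive and conditioned groups. The log2 fold change was 0.28 (SE 0.04, edgeR adjusted p = 0.0024) in inputs and 0.22 (SE 0.04, edgeR adjusted p = 0.032) in IPs. The transcript level does not by itself report the amino acid exchange. Input cKI naive replicate 3 stood apart in single genes, MT-ND6 among them, as described at the end. In these data fewer cells of a type and less RNA per cell cannot be told apart. CPM are not divided by gene length, so values are compared between libraries and not between genes.

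The tRNA genes were barely seen. The 7 with a count had 1 to 8 counts in all libraries together. MT-TS1, a serine tRNA gene, had all 8 of its counts in input cKI naive replicate 3. Among protein genes the counts behind each value also differed widely. MT-CO3, a subunit of complex IV, had 0 to 10 counts per IP and 32 to 65 per input, and MT-ATP6, a subunit of complex V, had 1 to 22 counts per IP. MT-CO2, MT-ATP6, MT-CO3, MT-ND3 and MT-ND4L follow one another along the genome with MT-ATP8 among them, by the order in the RefSeq annotation of GRCm38.p6. Their median input levels were 9.65, 7.77, 1.45, 3.26 and 10.3 CPM. The same annotation holds a locus on chromosome 1, Gm10925, that has mt-Atp6 as another name, and its row had 0 counts in all libraries. How reads that match several places were counted is not given in the sources used here, so the levels of these genes are uncertain. In all, 15 members (13 proteins and both rRNAs) passed the filter on low counts over the 24 libraries and over inputs, and 13 passed over IPs, where MT-CO3 and MT-ATP6 did not.

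RNA of the mitochondrial genome was depleted in the IP. Together the 37 genes took 0.0893 to 0.155% of counts in IPs (median 0.123%), against 2.86 to 3.36% in inputs (median 3.10%), with no overlap between the fractions. All 15 genes tested were lower in IP than in input (edgeR quasi-likelihood test, Benjamini-Hochberg adjusted p under 0.05), at log2 fold changes of -5.45 to -3.04 and a median of -4.51. Over all 17453 genes tested, 43.1% were called lower and 42.8% higher (85.9% in all), so a call alone sets these genes little apart, and the median of all genes was -0.01. The ranks show the size: MT-ATP8 was 5th and MT-CYTB 21st from the lowest of all genes, and MT-ND3, the least depleted, 1199th. Scaled to total counts, 4419 genes were called higher and 10288 lower, against 7473 and 7523 with TMM scaling. That scaling set the median of all genes at -0.31 and that of the mitochondrial genes at -4.81.

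The rRNAs were depleted less than the protein genes with at least 30 counts in every IP, MT-ND6 apart. MT-RNR2, the large-subunit rRNA, was at 317 to 486 CPM in IPs (median 396 CPM), against 3782 to 5202 CPM in inputs (median 4469.65 CPM), and fell by 3.49 on the log2 scale (SE 0.06, edgeR adjusted p = 2.44e-23). MT-RNR1, the small-subunit rRNA, was at 168 to 280 CPM in IPs and at 2253 to 3107 CPM in inputs, a log2 difference of -3.60 (SE 0.06, edgeR adjusted p = 1.57e-23). Taken per mouse, the IP held 7.10 to 11.8% of the input level of the summed rRNAs (median 8.40%), against 2.06 to 4.73% of that of the summed proteins (median 3.75%). In 12 of 12 mice both rRNAs kept a larger share in the IP than the summed proteins. They made up 36.1 to 58.4% of the mitochondrial counts of IPs, against 22.9 to 27.7% in inputs, so the fractions did not overlap in this composition either.

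**Figure D1:**
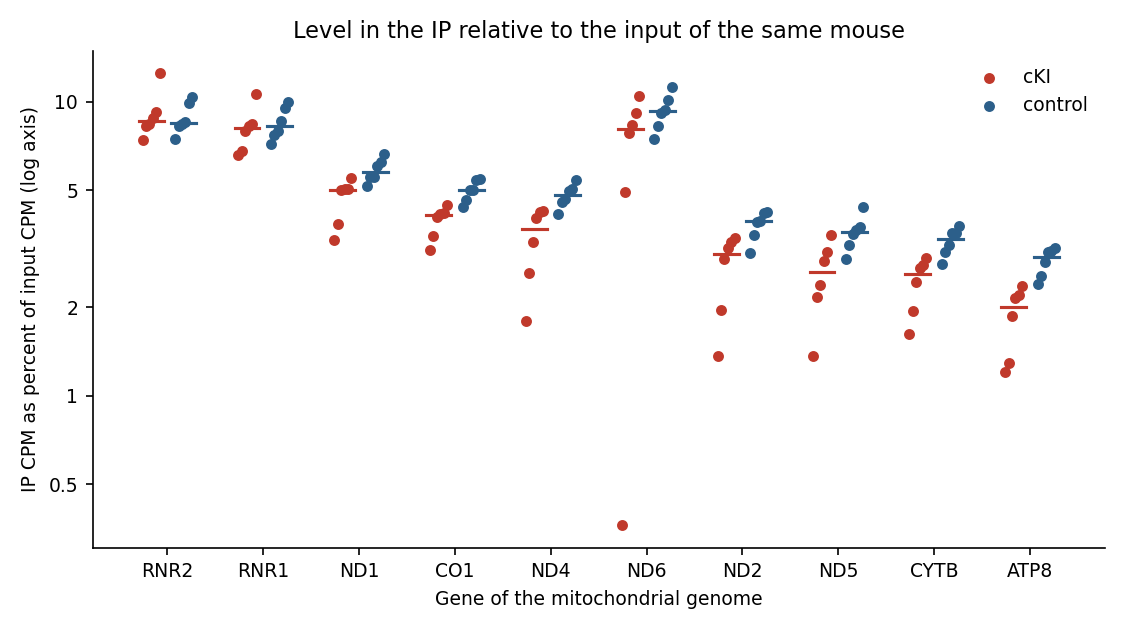
CPM in the IP as a percent of CPM in the input of the same mouse (log axis) for both rRNA genes and the 8 protein genes with at least 30 counts in every IP. Each point is a mouse, with 6 cKI mice to the left of 6 control mice for each gene, and bars are medians; the rRNAs sit between 6.60 and 12.5%, MT-ATP8 between 1.21 and 3.17%, and MT-ND6 of cKI naive replicate 3 alone at 0.362%.

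Among the complex I genes, MT-ND1 was at 124 to 267 CPM in IPs (median 203 CPM), against 3474.5 to 4270 CPM in inputs (log2 fold change -4.27, SE 0.07). MT-ND2 was at 33.1 to 122 CPM in IPs, against 2296 to 2889 CPM in inputs (log2 fold change -4.97, SE 0.13). In 12 of 12 mice MT-ND1 had the highest IP to input ratio of the protein genes with at least 30 counts in every IP, MT-ND6 apart. MT-ND4 (-4.64) and MT-ND5 (-5.05) lay between 43.8 and 145 CPM in IPs, against 2398 to 3437 CPM in inputs. MT-ND4L had a log2 fold change of -5.07 (SE 0.11) and MT-ND3 one of -3.04 (SE 0.15), from 3 to 18 counts per IP for MT-ND4L. MT-ND6 was at 1.36 to 3.32 CPM in IPs, against 26.6 to 36.4 CPM in 11 inputs and 689 CPM in the remaining one. Its log2 fold change was -4.31 (SE 0.50, edgeR adjusted p = 3.26e-07), and -3.52 (SE 0.08) without that input, beside -3.49 and -3.60 for the rRNAs. In 10 of 12 mice MT-ND6 had the highest ratio of the 8 protein genes with at least 30 counts in every IP, the exceptions being cKI naive replicates 2 and 3.

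MT-CYTB, the cytochrome b of complex III, was at 92.1 to 228 CPM in IPs (median 165 CPM), against 5354 to 6181 CPM in inputs (median 5764 CPM). It fell by 5.14 on the log2 scale (SE 0.09, edgeR adjusted p = 1.06e-20). MT-CO1, the catalytic subunit of complex IV, was at 69.8 to 120.0 CPM in IPs (median 97.8 CPM), against 2049 to 2407 CPM in inputs (median 2198 CPM). It fell by 4.51 on the log2 scale (SE 0.05, edgeR adjusted p = 2.46e-26), less than MT-CYTB, and the ratio of MT-CYTB was the lower one in 12 of 12 mice. MT-CO2 and MT-CO3, the other core subunits of complex IV, had log2 fold changes of -3.74 (SE 0.12) and -3.38 (SE 0.23), from the low counts given above. Of complex V, MT-ATP8 was at 4.95 to 13.7 CPM in IPs, against 359.6 to 492 CPM in inputs, and had the largest fall of the 15 genes, -5.45 (SE 0.10, edgeR adjusted p = 1.97e-20). It had the lowest ratio of the 8 protein genes with at least 30 counts in every IP in 11 of 12 mice. MT-ATP6 had a log2 fold change of -5.00 (SE 0.14).

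Nuclear genes for the same complexes, whose mRNAs are translated on cytosolic ribosomes, moved the other way. In IP over input 35 of 36 nuclear complex I genes tested were higher and 1 was lower, at a median log2 fold change of 0.54, beside the 42.8% of all genes called higher. Of complex III 9 of 9, of complex IV 10 of 11 and of complex V 14 of 15 were higher, with medians of 0.57, 0.40 and 0.62. Examples are the complex I subunit Ndufs1 at 0.68 (SE 0.03), the complex IV subunit Cox5b at 0.86 (SE 0.04) and the complex V subunit Atp5a1 at 0.64 (SE 0.03). Genes for mitochondrial translation factors, which are also nuclear, were higher for 18 of 21 and lower for 3 (median 0.40).

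In IPs the protein genes of the mitochondrial genome were lower in cKI than in control mice, mostly short of the threshold. The rRNAs were close to level as the mean of both training states. The 13 protein genes took 0.0517, 0.0570 and 0.0698% of counts in IP cKI naive, against 0.0699, 0.0806 and 0.0879% in IP control naive. After conditioning they took 0.0680, 0.0371 and 0.0624% in IP cKI, against 0.0921, 0.0773 and 0.0711% in IP control. All 6 cKI libraries were below all 6 control libraries, although the highest cKI and the lowest control value nearly met, and cKI 1 h replicate 2 was the lowest of all. The rRNAs took 0.0438, 0.0658 and 0.0530% in IP cKI naive, against 0.0481, 0.0521 and 0.0496% in IP control naive. They took 0.0561, 0.0521 and 0.0561% in IP cKI 1 h, against 0.0627, 0.0672 and 0.0589% in IP control 1 h. The naive groups thus overlapped, and the conditioned groups did not.

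**Figure D2:**
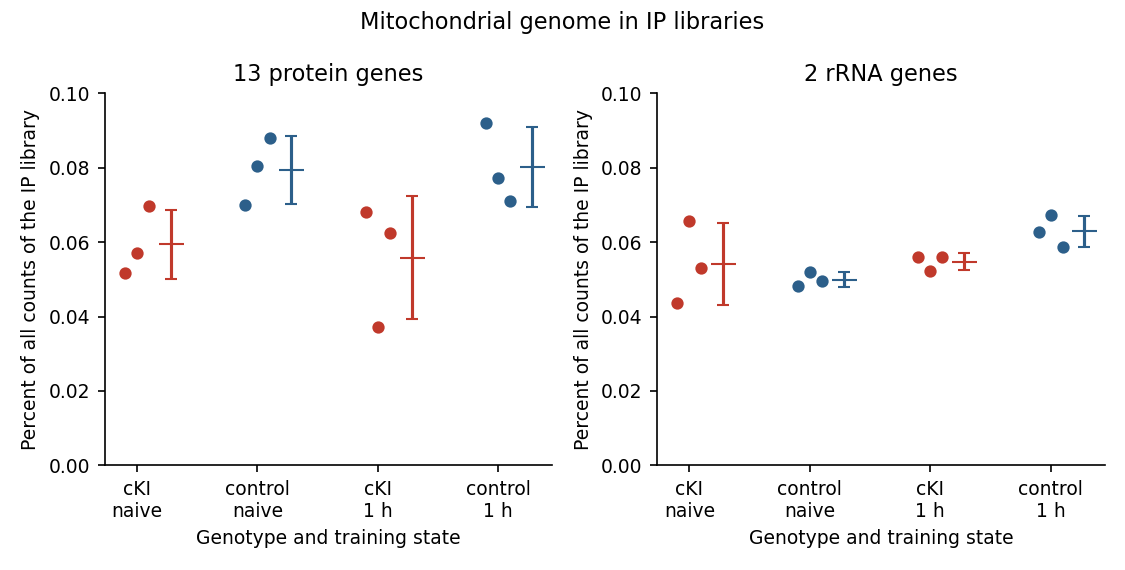
Percent of all counts of an IP library taken by the 13 protein genes (left) and the 2 rRNA genes (right) of the mitochondrial genome, by genotype and training state. Points are libraries, bars beside them the mean and SD of 3; protein genes reach at most 0.0698% in cKI and at least 0.0699% in control IPs, while the rRNA values of naive cKI (0.0438 to 0.0658%) span those of naive control IPs (0.0481 to 0.0521%).

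As the mean of both training states, 13 of 13 genes tested had a log2 fold change below 0 in cKI over control IPs, with a median of -0.43 against 0.00 for all 15238 genes. Of these, MT-ND3, MT-ND4L and MT-CO2 had at most 24, 18 and 38 counts per IP. In this comparison edgeR called 1 gene, MT-CO1, lower (1 of 13), and 1.04% of all genes lower (1.69% in either direction). MT-CO1 was at 84.2, 82.9 and 93.3 CPM in IP cKI naive, against 99.0, 106 and 113 CPM in IP control naive. It was at 96.6, 69.8 and 91.6 CPM in IP cKI 1 h, against 120.0, 115 and 103 CPM in IP control 1 h. No cKI library reached a control library, and the log2 fold change was -0.34 (SE 0.08, edgeR adjusted p = 0.045). The call was lost with total-count scaling (adjusted p = 0.064), with the sequencing lane as a covariate (log2 fold change -0.51, adjusted p = 0.56) and in 8 of 12 fits that left out 1 library (adjusted p 0.040 to 0.132 over the 12). Those 8 left out IP cKI naive replicate 1 or 2, IP cKI 1 h replicate 3, IP control naive replicate 2 or 3, or any of the IP control 1 h libraries. Without the lowest library, cKI 1 h replicate 2, the log2 fold change was -0.27 (adjusted p = 0.048). The DESeq2 Wald test called 4 genes lower: MT-CO1, MT-ND1, MT-CYTB and MT-ATP8. Over all genes it called 779 in either direction, against 258 by edgeR.

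The lane matters here because it follows genotype in part: per the labels, IP cKI naive and IP cKI 1 h replicate 1 were read in lane 5 and all other IPs in lane 6. Only IP cKI 1 h was split between lanes, so the lane covariate rests on its replicate 1 against its replicates 2 and 3. Within lane 6 the conditioned mice could be compared (2 cKI against 3 control libraries), and the median over 14 mitochondrial genes was -0.65 with 0 called. The 2 cKI libraries were replicate 2, the lowest of all IPs in its protein genes (0.0371% of counts), and replicate 3 (0.0624%). In that comparison MT-CO1 stood at -0.47 (SE 0.11, edgeR adjusted p = 0.35). Naive IPs had no lane in common, so there genotype and lane cannot be told apart.

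The other protein genes with ample counts ran in the same direction without passing the threshold. MT-ND1 was at 156, 176 and 194 CPM in IP cKI naive, against 211, 235 and 257 CPM in IP control naive. After conditioning it was at 191, 124 and 180 CPM in IP cKI, against 267, 224 and 212 CPM in IP control. Its groups did not overlap, and its log2 fold change was -0.46 (SE 0.11, edgeR adjusted p = 0.054). MT-ATP8 was at 7.42, 5.51 and 9.71 CPM in IP cKI naive, against 9.17, 12.1 and 13.7 CPM in IP control naive. It was at 9.36, 4.95 and 8.33 CPM in IP cKI 1 h, against 12.3, 11.8 and 11.8 CPM in IP control 1 h, a log2 difference of -0.64 (SE 0.17, edgeR adjusted p = 0.080). Here the naive groups overlapped. For MT-CYTB the log2 fold change was -0.51 (SE 0.15, edgeR adjusted p = 0.105), with MT-ND2 at -0.64 (SE 0.22, edgeR adjusted p = 0.160), MT-ND4 at -0.58 (SE 0.20, edgeR adjusted p = 0.161) and MT-ND5 at -0.43 (SE 0.21, edgeR adjusted p = 0.313). Values of MT-ND6 were close in both genotypes, at 1.36 to 3.27 CPM in cKI IPs and 2.43 to 3.32 CPM in control IPs (log2 fold change -0.21, SE 0.16, edgeR adjusted p = 0.512).

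Both rRNAs gave smaller differences as the mean of both states. After conditioning both were lower in cKI IPs without overlap (background 5.76%), with MT-RNR1 at 194 to 224 CPM in cKI and 239 to 280 CPM in control. MT-RNR2 was at 317, 472 and 372 CPM in IP cKI naive, against 344, 369.9 and 352 CPM in IP control naive. It was at 401, 393 and 399.7 CPM in IP cKI 1 h, against 444, 486 and 429 CPM in IP control 1 h. The log2 fold change was -0.03 (SE 0.08, edgeR adjusted p = 0.868) as the mean of both states, and -0.12 (SE 0.08, edgeR adjusted p = 0.411) for MT-RNR1. Of the mitochondrial counts, the rRNAs made up 45.8, 53.6 and 43.2% in IP cKI naive, against 40.8, 39.3 and 36.1% in IP control naive. They made up 45.2, 58.4 and 47.3% in IP cKI 1 h, against 40.5, 46.5 and 45.3% in IP control 1 h, so the naive groups were apart and the conditioned groups overlapped.

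**Figure D3:**
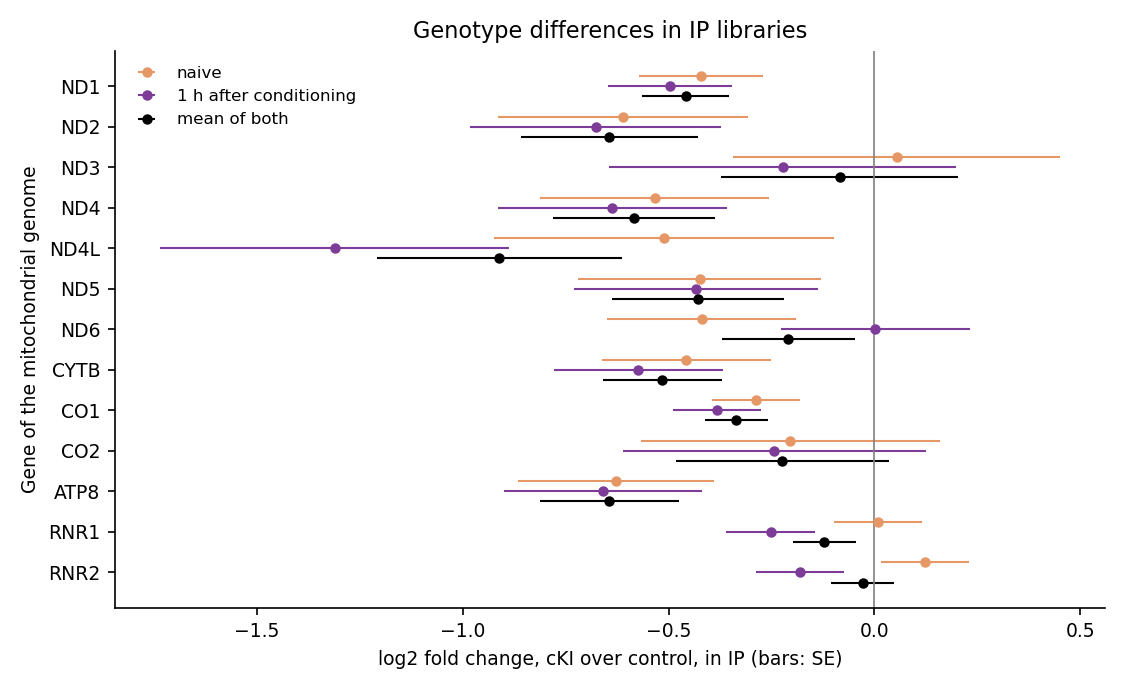
Log2 fold change of cKI over control in IP libraries (bars are SE) for the 13 mitochondrial genes tested, with a point each for naive mice, conditioned mice and the mean over both. The black points of all 13 genes tested lie below 0, from -0.91 for MT-ND4L to -0.03 for MT-RNR2. MT-ND4L had 3 to 10 counts per cKI IP and 8 to 18 per control IP.

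Counted by overlap, 3 of 13 genes (MT-ND1, MT-ND2 and MT-CO1) were lower in all 6 cKI IPs than in all 6 control IPs, against 0.853% of all genes tested. After conditioning 9 of 13 were lower without overlap (background 5.76%), and in naive mice 3 of 13 (background 14.0%). The 9 include MT-ND4L, which had 3 to 18 counts per IP. The genes tested share 1 transcript unit for the most part, so they are not separate observations. Tested within a training state, edgeR called 0 of 13 after conditioning (background 0.0591%) and 0 of 13 in naive mice (background 3.7%), with 7 and 4 genes at an unadjusted p under 0.05 and medians of -0.43 and -0.42. The DESeq2 Wald test called 0 after conditioning and 1, MT-ND1, in naive mice. Over all genes it called 1251 in naive mice, against 564 by edgeR, so the edgeR backgrounds do not apply to its calls.

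Summed markers of oligodendrocytes, their precursors and astrocytes had lower ranges in cKI IPs, and those of dentate granule cells a higher one. Over both training states together all these ranges overlapped. Within each training state those of oligodendrocytes and of their precursors did not. Summed oligodendrocyte markers were at 266 to 341 CPM in cKI IPs (median 274 CPM), against 285 to 403 CPM in control IPs (median 395 CPM). Summed astrocyte markers were at 597 to 736 CPM in cKI IPs, against 695 to 839 CPM in control IPs, and oligodendrocyte precursor markers at 14.0 to 19.2 CPM in cKI IPs, against 17.4 to 21.0 CPM in control IPs. The precursor markers were at 14.9 to 19.2 CPM in naive cKI IPs, against 19.8 to 21.0 CPM in naive control IPs. After conditioning they were at 14.0 to 16.9 CPM in cKI IPs, against 17.4 to 21.0 CPM in control IPs. Dentate granule cell markers were at 424 to 1409 CPM in cKI IPs (median 1082 CPM), against 395 to 1063 CPM in control IPs (median 675 CPM), and in naive mice at 1063.47 to 1409 CPM in cKI IPs, against 395 to 1062.97 CPM in control IPs, without overlap. Inhibitory neuron markers were at 228 to 347 CPM in cKI IPs and 263 to 396 CPM in control IPs, and excitatory neuron markers at 12818 to 14603 CPM in cKI IPs and 13789 to 14731 CPM in control IPs. Microglial markers were at 28.0 to 37.9 CPM in cKI IPs and 27.3 to 33.2 CPM in control IPs. Without lane as a covariate, edgeR called the oligodendrocyte markers Mbp and Mobp lower in cKI IPs as the mean of both states. Their log2 fold changes were -0.45 (SE 0.07, edgeR adjusted p = 0.0066) and -0.75 (SE 0.13, edgeR adjusted p = 0.015). The other listed cell type markers were not called there (background 1.69% in either direction). No listed marker of these types was at 0 in every IP. Their part in the difference between genotypes was not tested.

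Set against the input of the same mouse, the proteins again ran lower in cKI mice and the rRNAs did not. For the summed proteins the IP held 2.06 to 3.87% of the input level in cKI mice (median 3.36%), against 3.63 to 4.73% in control mice (median 4.40%). For the summed rRNAs it held 7.10 to 11.8% in cKI mice (median 8.41%), against 7.35 to 10.2% in control mice (median 8.40%). Both pairs of ranges overlapped. In the test of whether IP over input differed with genotype, edgeR called 0 of 15 genes (background 0.0229%), with 9 at an unadjusted p under 0.05 and a median of -0.48. The DESeq2 Wald test called 2 lower, MT-ATP8 (log2 fold change -0.64) and MT-CO1 (-0.36). The background above is that of edgeR alone, so these 2 calls are not set against a share of all genes.

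In inputs the mitochondrial genome was at much the same level in both genotypes. Its genes took 2.89 to 3.22% of counts in cKI inputs and 2.86 to 3.36% in control inputs. As the mean of both states edgeR called 0 of 15 genes (background 3.15%, of which 2.0% lower), with 3 at an unadjusted p under 0.05, and DESeq2 called 0. Those 3 were all lower in cKI: MT-ND1 (-0.09), MT-ND2 (-0.12) and MT-CO2 (-0.30). MT-CYTB, with 5354 to 6181 CPM over all inputs, had a log2 fold change of -0.01 (SE 0.04) in cKI over control. MT-CO1 had one of 0.03 (SE 0.04) and MT-RNR2 one of -0.05 (SE 0.05). MT-CO2 had the lowest unadjusted p, at -0.30 on the log2 scale (SE 0.09, edgeR adjusted p = 0.102). In naive mice 0 of 15 were called (background 0.859%) with 1 at an unadjusted p under 0.05, and after conditioning 0 of 15 (background 0.267%) with 2, by edgeR, and 0 by DESeq2 in both. The 1 in naive mice was MT-ND6, at 3.13 (SE 1.17) on the log2 scale, which rests on input cKI naive replicate 3. Log2 fold changes were negative for 5 of 15 genes in naive mice and for 13 of 15 after conditioning. After conditioning MT-ND2, MT-ND4 and MT-CO2 were lower in cKI inputs without overlap (3 of 15, background 13.6%). Among inputs all cKI libraries and 2 naive control libraries were read in lane 4 and the other control libraries in lane 5. Within lane 4 the naive mice gave 0 calls of 15 by edgeR, and MT-CYTB stood at 0.10 (SE 0.05) and MT-CO1 at 0.10 (SE 0.06) on the log2 scale. Leaving out input cKI naive replicate 3 also left 0 calls in each of the 3 genotype comparisons.

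Conditioning left no call among these genes. In IP, edgeR called 0 of 13 in cKI mice (background 0.0459%) with 0 at an unadjusted p under 0.05, and 0 of 13 in control mice (background 0.328%) with 2. In input it called 0 of 15 in cKI mice (background 0.0174%) and 0 of 15 in control mice (background 0.737%), with 1 in each at an unadjusted p under 0.05. In cKI mice that gene was MT-ND6 (log2 fold change -3.03, SE 1.16), which was displaced in input cKI naive replicate 3. In control mice it was MT-RNR1 (0.16, SE 0.07). The interaction of genotype with training called 0 of 13 in IP (background 0.0131%) and 0 of 15 in input (background 0.0348%), and the change of IP over input with training 0 of 15 (background 0.00573%), with 0 at an unadjusted p under 0.05 in each. DESeq2 called 0 in every one of these comparisons. Of single genes, MT-RNR2 had 444, 486 and 429 CPM in IP control 1 h, against 344, 369.9 and 352 CPM in IP control naive. The difference was 0.35 on the log2 scale (SE 0.11, edgeR adjusted p = 0.217). MT-RNR1 ran the same way, at 239 to 280 CPM in IP control 1 h, against 190 to 213 CPM in IP control naive. In cKI mice MT-RNR2 had 401, 393 and 399.7 CPM in IP cKI 1 h, against 317, 472 and 372 CPM in IP cKI naive, at a log2 fold change of 0.05 (SE 0.11). Without IP cKI naive replicate 2 the change in control mice passed the threshold (adjusted p = 0.039).

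MT-ND6 set 1 library apart. In input cKI naive replicate 3 it stood at 689 CPM (23238 counts), against 26.6 to 36.4 CPM (973 to 1389 counts) in the other 11 inputs, whose mean was 29.9 ± 2.76 CPM (SD, n = 11). That is 23 times the mean of the others, or 4.52 on the log2 scale, where the other inputs had an SD of 0.13. Set against the protein counts of the mitochondrial genome alone it was 4.45 on the log2 scale. The IP of the same mouse held 2.49 CPM (84 counts), within the 1.36 to 3.32 CPM of the other IPs, so the excess was in the input library alone. The other 14 mitochondrial genes tested lay, in that input, between -0.15 and 0.41 of the mean of the other inputs on the log2 scale. The upper end was MT-CO3 with 61 counts. The tRNA genes were not tested, and of these MT-TS1 had 8 counts in that input and 0 in the other 23 libraries.

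**Figure D4:**
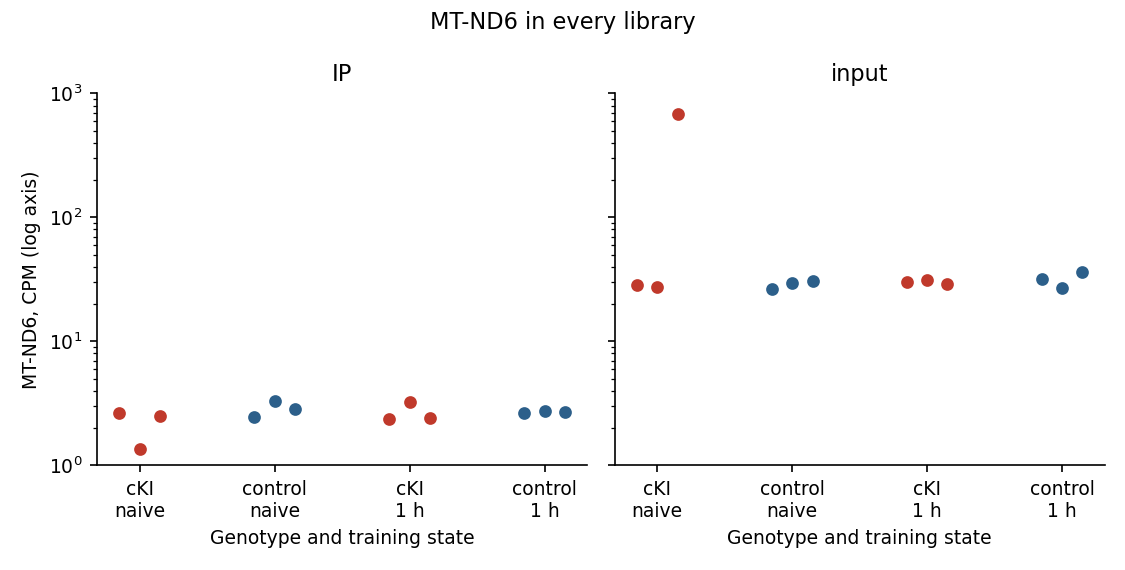
MT-ND6 in CPM (log axis) in every IP (left) and input (right) library by genotype and training state, 3 libraries a group. Input cKI naive replicate 3 lies at 689 CPM, the other inputs between 26.6 and 36.4 CPM, and all IPs between 1.36 and 3.32 CPM.

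MT-ND6 was not the only gene displaced in that library. Measured against the mean log2 CPM of the other 11 inputs, 37 of 17232 genes lay more than 4-fold above and 71 more than 4-fold below, against 1 to 10 above and 1 to 10 below in each of the other inputs. MT-ND6 ranked 7th among those above. Outside the mitochondrial genome, farthest above were 3300002P13Rik, 9530082P21Rik and Pter, a phosphotriesterase-related gene at 114 CPM, against 1.24 to 1.69 CPM in the other inputs. Farthest below were Tshz2, a zinc finger gene at 0.770 CPM, against 57.4 to 101 CPM, and Ppia, the abundant cyclophilin A gene, at 4.27 CPM, against 257 to 349 CPM. Gnas, a G protein subunit gene, was at 47.6 CPM in that input, against 856 to 1026 CPM in the others. Of the 20 genes outside the mitochondrial genome that lay farthest out (10 above, 10 below), 18 lay within the range of the other 11 IPs in the IP of the same mouse, the exceptions being Pter (0.624 CPM, against at most 0.563 CPM) and Gnas (1047 CPM, against at least 1128 CPM). Over all genes its median absolute log2 difference was 0.08, within the 0.08 to 0.21 of the other inputs. What set these genes apart was not tested.

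The library decides what can be said of MT-ND6 between genotypes. In naive inputs its log2 fold change was 3.13 (SE 1.17, edgeR adjusted p = 0.231) in cKI over control with the library and -0.01 (SE 0.10, edgeR adjusted p = 0.963) without it. As the mean of both states it was 1.53 (SE 0.80, edgeR adjusted p = 0.317) with the library and -0.04 (SE 0.07, edgeR adjusted p = 0.790) without it. Over all cKI mice, IP held 0.362 to 10.4% of the input level of MT-ND6 (median 8.06%), against 7.45 to 11.2% in control mice (median 9.27%), and the lowest value is that of the library's mouse.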

How the data were processed

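The authors deposited raw gene counts made from paired-end reads of poly(A)-selected directional libraries, per the labels' protocols. Cutadapt, Bowtie and DESeq2 are named in the submitters' processing notes without their roles; counter, build and strand setting are not stated in the sources used, so no position is printed. No column was left out (0 unused) and 0 pairs of libraries were identical. Counts were fitted in R 4.3.3 with edgeR 4.0.16 (TMM scaling, filterByExpr with a minimum count of 10, robust quasi-likelihood test, 1 mean per group), with Benjamini-Hochberg adjustment over all genes tested and a threshold of 0.05. The 24 libraries were fitted together for comparisons across fractions, and inputs and IPs apart for the others. CPM are counts per M of the TMM-scaled library size over all 24 libraries; percents of counts are unscaled. Total counts of 28.8 to 43.5 M per library set the counting precision. Alternatives were DESeq2 1.42.0, other scalings, no filter, lane as a covariate, blocks and leaving out each library. The fits were tested on simulated counts. Same-mouse IP and input share the animal; their deviations from group means correlated at -0.0047 to 0.43 (median 0.14). The members, gene lists and tests were chosen with earlier results of these data known. Genes outside the mitochondrial genome were named by a rule: up to 4 of a list and contrast by smallest p among those called, checks of the pulldown, marker sums, and the 10 genes farthest above and below in the input that stood apart; the text prints a selection of these. Each library came from 1 mouse, so the spread is between mice.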

Additional observations from a re-analysis of the deposited data

Results flagged for a closer look

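In 64 sets of 6 libraries (15 genes and the summed level, by fraction and genotype), 2 held a library far from the other 5. Chance alone is expected to give about 1 in 20, so the number of sets flagged is no more than chance would give. MT-ND6 stood at 689 CPM in input cKI naive replicate 3, against at most 31.3 CPM in the other 5 cKI inputs. MT-ATP6 stood at 0.710 CPM in IP control naive replicate 3 (22 counts), against at most 0.313 CPM in the other 5 control IPs.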

How the results depend on the processing

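The depletion in IP held for 15 of 15 genes under every alternative fitted, except MT-ND6 in DESeq2, which gave it no adjusted p. As the mean of both states, the count of mitochondrial genes lower in cKI IPs was 1, against 0 with total-count scaling, 0 with lane as a covariate and 4 with the DESeq2 Wald test, and 0 to 3 with 1 library left out. In naive IPs it was 0, against 1 with DESeq2 and 0 to 2 with 1 library left out; for 1 h against naive in control IPs it was 0 to 1. The genotype difference of IP over input had 0 calls, against 2 with DESeq2, for which no share of all genes is given here. Pairing: replicate numbers mark no shared animal, and same-numbered libraries correlated at -0.20 to 0.43 in IPs and -0.16 to 0.09 in inputs; with the number as a block the IP count was 2. With the mouse as a block the 15 calls of IP against input stayed 15, and the blocks changed no other call among these genes. The MT-CO1 log2 fold change in IPs was -0.32 with total counts and -0.51 with lane, and -0.38 to -0.27 with 1 library left out; the cause was not tested. That of MT-ND6 in inputs was -0.013 to 3.66 (naive) and -0.038 to 1.80 (mean of both) with 1 library left out, the negative values being those without input cKI naive replicate 3. Without the rRNAs the mean percent of counts was 0.0595, 0.0559, 0.0795 and 0.0802 in IP cKI naive, IP cKI 1 h, IP control naive and IP control 1 h, and 2.35, 2.21, 2.27 and 2.34 in the matching inputs. Over all genes, calls in cKI over control IPs (mean of both) numbered 258, against 3 with lane, 779 with DESeq2 and 467 with the number as a block; in naive IPs 564, against 1, 1251 and 1018; in inputs (mean of both) 543, against 18, 951 and 292. For IP over input they numbered 14996, against 9763 with lane. Within each fraction the lane term rests on the only group split between lanes, IP cKI 1 h or input control naive. Depth limits MT-CO3, MT-ATP6, MT-ND3, MT-ND4L and the tRNAs most.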

Other observations

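The nuclear genes that serve the mitochondrial genome differed little by genotype in IPs. Of 21 tested genes of mitochondrial DNA copying and transcription 0 rose and 1 fell in cKI over control IPs as the mean of both training states (median 0.05): Ppargc1a, the coactivator of mitochondrial biogenesis, at -0.52 on the log2 scale (SE 0.08, edgeR adjusted p = 0.013). In naive IPs it was at -0.84 (SE 0.12, edgeR adjusted p = 0.0062). Of 34 genes of mitochondrial RNA processing, tailing and decay 1 rose and 0 fell: Rexo2, an exonuclease of short RNA fragments, at 0.22 (SE 0.04, edgeR adjusted p = 0.033). In naive IPs Fastkd5, needed for processing of mitochondrial transcripts, was also higher, at 0.41 (SE 0.10, edgeR adjusted p = 0.040). Of the nuclear genes of complexes I, III, IV and V, edgeR called 0 in IPs in this comparison, at medians of 0.09, 0.03, 0.11 and 0.07, beside 1.69% of all genes called in either direction. With lane as a covariate 3 of all 15238 genes were called as the mean of both states and 1 in naive IPs, against 258 and 564 without it; naive IPs of the 2 genotypes share no lane, so genotype and lane cannot be told apart there.

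In inputs the nuclear subunits ran slightly lower in cKI mice, while the mitochondrial genes had a median of -0.01, with 8 lower and 7 higher. Of complex I 2 of 36, of complex III 2 of 9, of complex IV 0 of 11 and of complex V 3 of 15 fell, beside 2.0% of all genes, at medians of -0.13, -0.15, -0.13 and -0.14. They include Ndufs8 at -0.25 (SE 0.05, edgeR adjusted p = 0.019), Uqcrh at -0.28 (SE 0.07, edgeR adjusted p = 0.040) and Atp5l at -0.28 (SE 0.07, edgeR adjusted p = 0.049). Lane follows genotype in part among inputs too, and with lane as a covariate 18 of all 17232 genes were called in this comparison, against 543 without it. Only input control naive was split between lanes, so that covariate rests on its replicate 3 against its replicates 1 and 2. In the same comparison 8 of 10 oligodendrocyte markers (median -0.31), 3 of 10 astrocyte markers, 2 of 6 oligodendrocyte precursor markers, 2 of 10 inhibitory neuron markers and 1 of 10 endothelial and pericyte markers fell, and 2 of 7 dentate granule cell markers rose; their part in this difference was not tested.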
